A study of Gallus gallus with 2 samples.

Results

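Retained introns of chicken DT40 cells were taken from a table of splicing events, as the rows that the table itself types as a retained intron, with 2 numbers per library, exact repeats removed and chromosome Z left out. This gave 1004 introns under 867 gene names, of 10330 events in all. DT40 is a B-lymphoblast line from the chicken bursa. The poly(A) RNA of 2 cell populations was sequenced, SRSF10-deficient cells (SRSF10-/-, KO) and wild-type cells (WT), with 1 library each. The labels do not say whether the deficient cells are 1 clone, and with 1 library per genotype no value below has a replicate check. The table has 0 rows for SRSF10, which leaves the deletion unchecked on its own gene, and it holds no expression levels with which to check the cell type. The table lists reads that support exclusion and reads that support inclusion of each event. The inclusion level is the inclusion reads as a percent of both, and differences are KO minus WT in percentage points.

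An intron is normally cut out of the transcript before the mRNA leaves the nucleus. When it is kept, the message often carries early stop codons and is held in the nucleus or degraded, and genes of RNA-binding proteins are known to use such introns to tune their own expression. SRSF10 belongs to the serine/arginine-rich (SR) proteins, which bind RNA near splice sites and can help or hinder their use. Chicken chromosomes differ widely in size, and the small ones are rich in genes and have short introns.

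The file header defines exclusion and inclusion for exons only. For GAPDH, the glycolytic enzyme, whose mRNA is fully spliced in textbook accounts, an 86 nt intron (chromosome 1, 76435129 to 76435214, in galGal4 like all coordinates here) had 2006 exclusion and 5 inclusion reads in the KO library, against 2040 exclusion and 9 inclusion reads in the WT library. Exclusion reads thus made up nearly all reads at this spliced intron, and inclusion is read here as retention of the intron, which the sources used do not state. The Spearman correlation of inclusion reads with intron length across the 385 tested introns was -0.11 in the KO and -0.10 in the WT library. Within the 133 introns of at most 200 nt it was 0.20 in the KO and 0.17 in the WT library, and within the 252 longer ones -0.05 in the KO and -0.03 in the WT library. These are descriptions over introns of the same 2 libraries.

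Of the 1004 introns, 385 in 351 gene names had at least 20 reads in each library and were tested, and 619 had fewer and are not described by a level. The tested introns had a median of 75 reads in the KO library (quartiles 45 and 168) and of 73 reads in the WT library (quartiles 39 and 161). All listed introns together held 75705 of 2022690 event reads in the KO library and 72882 of 2047920 in the WT library. Most gene names, 760, had 1 intron, and 371 of the 1004 rows belonged to assembled loci with no gene name. Of the introns, 25 (2.49%) shared a start or an end with an event of another type. Overlap without a shared start or end was not counted.

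The low and the high class of levels were of similar size. The middle class held more introns but spans most of the scale, so introns were crowded at both ends. In the KO library 112 introns (29.1%) had an inclusion level of 10% or less, 164 (42.6%) lay between and 109 (28.3%) had 90% or more. The WT library had 111 introns (28.8%) at 10% or less, 166 (43.1%) between and 108 (28.1%) at 90% or more. The median level was 51.3% in the KO and 59.1% in the WT library, while the median of the differences within introns was 0 points. At the low end stood the introns with most reads. HNRPDL, an hnRNP-type RNA-binding protein, had 6.65% (95% Clopper-Pearson interval 5.92 to 7.44; 4240 reads) in KO cells and 6.22% (5.57 to 6.92; 5114 reads) in WT cells at an intron of 1163 nt. NUCKS1, a nuclear phosphoprotein, had 0.321% (0.166 to 0.56; 3739 reads) in KO cells and 0.478% (0.274 to 0.776; 3345 reads) in WT cells. The unnamed locus XLOC_003110 had 0.29% in KO and 0.381% in WT cells, and GAPDH had 0.249% in KO and 0.439% in WT cells. Of the 5 introns with most reads, the unnamed locus XLOC_020199 stood at the high end, with 89.7% of 2287 reads in KO cells and 90.4% of 2719 reads in WT cells. All intervals cover counting error only, since PCR copies of a read are not independent molecules.

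Some introns at the high end had hardly any spliced read. SF3B1, a subunit of the U2 snRNP, had 414 inclusion reads and 1 exclusion read in KO cells and 332 inclusion reads and 0 exclusion reads in WT cells, at a listed intron of 68 nt (chromosome 7, 9694786 to 9694853). YARS, the tyrosyl-tRNA synthetase, had 282 inclusion reads and 1 exclusion read in KO cells and 278 inclusion reads and 0 exclusion reads in WT cells. Both genes were at 99% or more in both libraries, so in these 2 genes the listed removal was rare. Over all tested introns, exclusion reads were 0 in 31 in the KO library and in 25 in the WT library, and in 4 of them in both. Inclusion reads were 0 in 33 in the KO library and in 36 in the WT library, and in 26 of them in both.

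The listed lengths ran from 29 to 268271 nt with a median of 436.5 nt. Of the introns, 290 (28.9%) were at most 200 nt long and 714 were longer. Short introns had the higher median level. The Spearman correlation of level with length over the 385 tested introns was weak, at -0.083 in the KO and -0.066 in the WT library. The 133 tested introns of at most 200 nt had a median level of 69.0% in KO cells and 74.0% in WT cells. The 252 tested longer introns had medians of 44.4% in KO cells and 44.5% in WT cells. Among short introns 31 (23.3%) were at 10% or less and 45 (33.8%) at 90% or more in KO cells, against 29 (21.8%) and 41 (30.8%) in WT cells. Among longer introns 81 (32.1%) were at 10% or less and 64 (25.4%) at 90% or more in KO cells, against 82 (32.5%) and 67 (26.6%) in WT cells. The 2 libraries thus gave the same order of the length classes, with no test over introns. The size of the gap moved with the minimum depth. At 50 reads the longer introns had medians of 17.2% in both libraries and the gap was 58.5 points in KO and 59.1 points in WT cells, and at 10 reads it was 9.61 points in KO and 20.1 points in WT cells. Unnamed loci made up 31.7% of the tested longer introns and 6.77% of the short ones, and their median level was 6.06% in KO and 6.02% in WT cells. Without them the medians were 74.1% for short and 61.5% for longer introns in KO cells, and 75.9% for short and 60.3% for longer ones in WT cells, so the gap was 12.6 points in KO and 15.5 points in WT cells in place of 24.6 and 29.5 points.

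**Figure D1:**
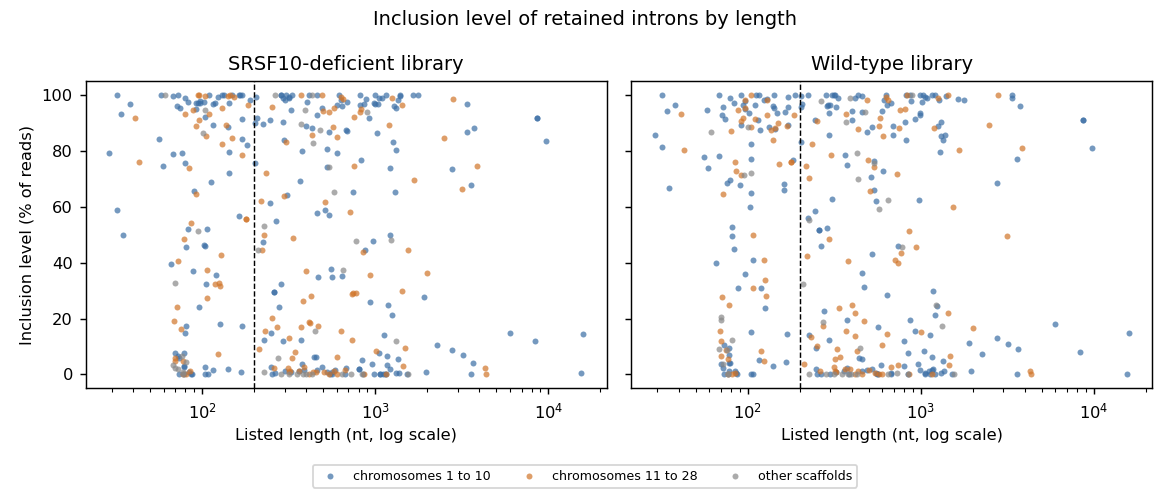
Inclusion level (percent of reads, vertical axis) of the 385 tested introns against listed length (nt, log scale), with the KO library on the left and the WT library on the right. Each point is 1 intron, coloured by chromosome class, and the dashed line marks 200 nt. Points at low levels start at 68 nt in both panels, while introns under that length lie at 39.4% or more in the KO and 40% or more in the WT panel.

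Levels did not follow length evenly within the short class. The 51 tested introns of 61 to 90 nt had a median level of 16.3% in KO and 15.6% in WT cells, and 24 of them in KO and 22 in WT cells were at 10% or less. The 45 introns of 91 to 130 nt had medians of 85.3% in KO and 87.5% in WT cells. The 26 introns of 131 to 200 nt had medians of 88.8% in KO and 88.3% in WT cells. Thus the median level was low in a narrow band of short introns and high just above it. The introns of 61 to 90 nt were mixed, with 9 in KO and 7 in WT cells at 90% or more. Their quartiles were 2.80% and 69.6% in KO and 3.95% and 69.0% in WT cells. Beyond 200 nt the medians lay between, at 35.9% in KO and 38.4% in WT cells for 201 to 500 nt, at 52.3% in KO and 60.6% in WT cells for 501 to 1000 nt, and at 33.1% in KO and 23.2% in WT cells for introns over 1000 nt. The median difference within introns was 0.265, -0.3 and -0.0084 points in the same order. The gaps between the library medians are thus not shifts of the typical intron. The shortest intron at 10% or less measured 68 nt in both libraries. The 13 tested introns below 68 nt had levels of 39.4% to 100% in KO and 40% to 100% in WT cells. The shortest of them lay in MTR, the methionine synthase, with 29 nt and 79.3% in KO and 85.7% in WT cells, and in ATG9A, an autophagy protein, with 32 nt and no exclusion reads among 33 in KO and 36 in WT cells. A gap of so few bases is shorter than introns known from vertebrates, and the files do not record how these rows were formed. The longest tested introns were in the unnamed loci XLOC_007946 (15933 nt; 14.4% in KO and 15% in WT cells), XLOC_001865 (15475 nt; 0.549% in KO cells and 0 of 126 reads in WT cells, which allows up to 2.38%) and XLOC_013995 (9741 nt; 83.5% in KO and 81.2% in WT cells).

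The remainder of the length after division by 3 was counted in each level class. Levels here are the mean of both libraries, and length is end minus start plus 1. Among short introns at 90% or more, 7 of 44 (15.9%) had a length divisible by 3, 17 left 1 and 20 left 2. Among short introns at 10% or less, 12 of 31 (38.7%) were divisible by 3, 9 left 1 and 10 left 2. Among longer introns the order was the other way, with 32 of 69 (46.4%) divisible by 3 at 90% or more and 23 of 82 (28%) at 10% or less. These counts are descriptions of the listed coordinates, whose first and last base the file does not define for introns. Both orders depend on that definition. If length is end minus start, the lengths that left 1 become the divisible ones. The short introns then have 17 of 44 (38.6%) at 90% or more and 9 of 31 (29.0%) at 10% or less. The longer ones have 11 of 69 (15.9%) and 33 of 82 (40.2%), so both orders reverse and neither is read as a result.

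Chromosomes 1 to 10 held 631 introns (224 tested), chromosomes 11 to 28 held 288 (121 tested), and 85 (40 tested) lay on other scaffolds. Introns on the large chromosomes had a median level of 66.6% in KO and 69.0% in WT cells. Those on chromosomes 11 to 28 had medians of 42.9% in KO and 43.6% in WT cells. The classes differed at the high end, with 33.9% of introns at 90% or more on chromosomes 1 to 10 and 22.3% on chromosomes 11 to 28 in KO cells, and 35.3% and 19.8% in the same order in WT cells. At the low end they hardly differed, with 27.2% and 26.4% at 10% or less in KO cells, and 26.8% and 28.1% in WT cells. Introns on the other scaffolds had medians of 13.7% in KO and 19.1% in WT cells, and 67.5% of these introns were unnamed loci.

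**Figure D2:**
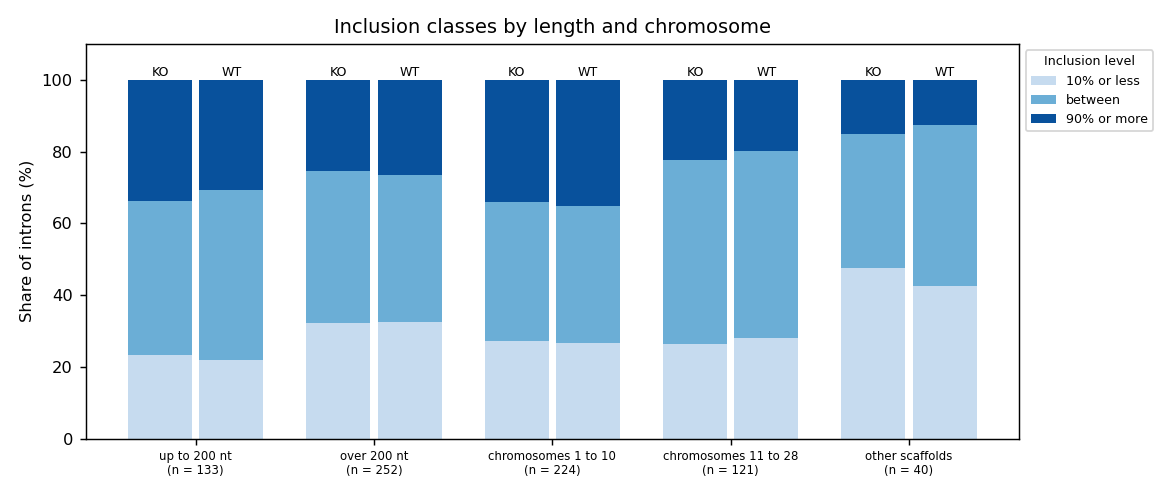
Share of tested introns (percent, vertical axis) at inclusion levels of 10% or less, between, and 90% or more, by length class and chromosome class, with the KO bar left of the WT bar in each pair. The darkest part, 90% or more, is larger in short than in longer introns and on chromosomes 1 to 10 than on 11 to 28 in both libraries.

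When both divisions were crossed, the gap between chromosome classes was wide in the longer introns. On chromosomes 1 to 10 the 146 longer introns had medians of 60% in KO and 62.3% in WT cells, and on chromosomes 11 to 28 the 78 longer introns had medians of 29.0% in KO and 24.3% in WT cells. Among short introns, the 78 on chromosomes 1 to 10 had medians of 77.2% in KO and 77.5% in WT cells, and the 43 on chromosomes 11 to 28 had medians of 64.7% in KO and 75.9% in WT cells. Within the short introns on chromosomes 11 to 28 the median difference was -1.0 points. On other scaffolds the order of the length classes was the reverse. The 12 short introns there had medians of 5.57% in KO and 16.0% in WT cells. The 28 longer ones there had 26.5% in KO and 21.9% in WT cells. Without unnamed loci the longer introns had medians of 73.9% in KO and 77.1% in WT cells on chromosomes 1 to 10 (105 introns), against 29.8% in KO and 40.5% in WT cells on chromosomes 11 to 28 (61 introns). The short introns without them had 77.2% in KO and 77.5% in WT cells on chromosomes 1 to 10 (76 introns). On chromosomes 11 to 28 they had 64.7% in KO and 75.9% in WT cells (41 introns). On chromosomes 1 to 10 the length classes thus lay close once unnamed loci were left out. Read depth was alike, with a median of 78 reads in KO and 73 in WT cells for longer introns on the large chromosomes, and of 80 in KO and 74.5 in WT cells on the small ones.

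The comparison of KO with WT cells asked which introns changed without SRSF10. The introns of IDI1 (an isomerase of isoprenoid and cholesterol synthesis) and TMEM115 rose by 21.6 and 15.9 points. Those of UBE2E3, RAB6A and MYCBPAP fell by 31.0, 20.2 and 43.0 points. The calls of IDI1 and TMEM115 held with the correction for spread given below, and those of UBE2E3, RAB6A and MYCBPAP did not. Every event with 20 or more reads in both libraries, 6093 in all, went into a two-sided Fisher's exact test. P-values were adjusted over all of them after Benjamini and Hochberg, and an event was called at an adjusted p under 0.05 with a difference of at least 10 points. Of the 385 introns 18 were called (4.68%), 11 higher (2.86%) and 7 lower (1.82%) in KO cells. Over all events 286 were called, a background of 4.69%, with 2.48% higher and 2.22% lower. The share among introns was thus that of the table as a whole, which pools unlike event types. Cassette exons were called at 6.07%, alternative 3' sites at 4.58% and alternative 5' sites at 4.2%. Short introns had 10 calls of 133 (7.52%) and longer ones 8 of 252 (3.17%), and chromosomes 1 to 10 had 10 of 224 (4.46%), chromosomes 11 to 28 had 5 of 121 (4.13%) and other scaffolds 3 of 40 (7.5%). On chromosomes 1 to 10 these were 4 higher (1.79%) and 6 lower (2.68%), on chromosomes 11 to 28 they were 4 higher (3.31%) and 1 lower (0.826%), and on other scaffolds all 3 were higher (7.5%). None of these divisions was tested. The test compares 2 libraries and counts reads as independent. Over the 190 introns with enough reads for it, the median chi-square was 3.35 times the value that counting noise alone gives. Each chi-square was then divided by the factor of its event type (3.33 for retained introns), or by 1 where that factor was smaller. With this correction 3 of the 18 kept their call. Those of TMEM115 and IDI1 were among them. The same ratio was 0.162 for events of undefined type and 13.7 for mutually exclusive exons, which are both part of the 4.69% background.

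The bulk of the introns moved little. The difference was under 5 points in 233 introns (60.5%) and at least 10 points in 86 (22.3%), compared with 69.4% and 15.1% over all events. The median difference was 0 points, with 168 introns higher, 183 lower and 34 equal in KO cells. The median size of the difference was 3.17 points for introns, close to 3.16 points for cassette exons and above 2.36 points for alternative 3' sites and 2.27 points for alternative 5' sites. Across the 385 introns the levels of the libraries had a Pearson correlation of 0.97 and a Spearman correlation of 0.95. At an unadjusted p under 0.05 stood 56 introns (14.5%), against 13.4% of all events.

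**Figure D3:**
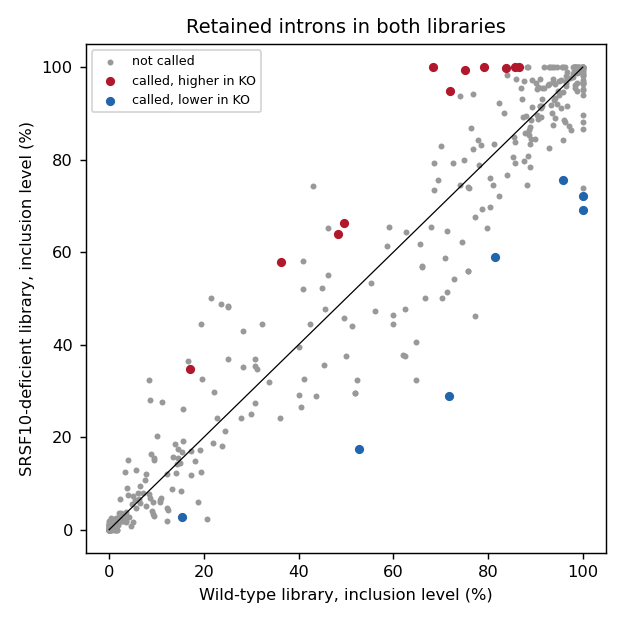
Inclusion level in the KO library (percent, vertical axis) against the WT library (percent, horizontal axis) for the 385 tested introns, with the line of equal levels. The 11 called introns above the line are red and the 7 below it blue, and the remaining points crowd at both ends of the line.

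Among the 11 called introns with higher levels in KO cells, IDI1 had the most reads. Its 460 nt intron (chromosome 2, 10372960 to 10373419) had 543 exclusion and 745 inclusion reads in KO cells, a level of 57.8% (55.1 to 60.6), against 543 exclusion and 308 inclusion reads in WT cells, a level of 36.2% (33 to 39.5). The exclusion reads were thus equal in number, and the inclusion reads differed. These counts are not scaled to the reads of the gene, so they do not show which form changed. A cassette exon of IDI1 had 3545 reads in KO and 2737 in WT cells. The difference was 21.6 points with an adjusted p of 3.05e-20 in the exact test, and of 2.19e-05 with the correction for spread. This cassette exon, upstream in coordinates (chromosome 2, 10370815 to 10370945), had 0 exclusion and 3545 inclusion reads in KO cells. It had 1 exclusion and 2736 inclusion reads in WT cells, and was not called. In the authors' deposited table, IDI1 was the 1 retained intron with an adjusted p under 0.05 (0.0284).

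TMEM115 encodes a Golgi membrane protein. Its 140 nt intron (chromosome 12, 1438953 to 1439092) had 1 exclusion and 485 inclusion reads in KO cells, a level of 99.8% (98.9 to 100), against 131 exclusion and 681 inclusion reads in WT cells, a level of 83.9% (81.2 to 86.3). Spliced reads were therefore all but missing in KO cells. The adjusted p was 6.21e-25 in the exact test and 0.000122 with the correction for spread. In the authors' deposited table the adjusted p of this intron was 0.5.

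Exclusion reads were 0 in KO cells for 4 further rises. CWF19L2, related to a spliceosome-associated protein of fission yeast, had 0 exclusion and 32 inclusion reads in KO cells and 13 exclusion and 28 inclusion reads in WT cells, a level of 100% (89.1 to 100) against 68.3% (51.9 to 81.9). DSN1, a kinetochore protein, had 0 exclusion and 54 inclusion reads in KO cells and 21 exclusion and 136 inclusion reads in WT cells, 100% (93.4 to 100) against 86.6% (80.3 to 91.5). GLCCI1, a glucocorticoid-induced transcript, had 0 exclusion and 44 inclusion reads in KO cells and 45 exclusion and 270 inclusion reads in WT cells, 100% (92.0 to 100) against 85.7% (81.4 to 89.4). The unnamed locus XLOC_020593 had 0 exclusion and 53 inclusion reads in KO cells and 45 exclusion and 171 inclusion reads in WT cells. Among all 11 rises, 6 had 0 or 1 exclusion reads in KO cells, as had 58 of the 385 tested introns. A rise is called on a higher level in KO cells, so few exclusion reads there follow in part from the selection. For DSN1 (adjusted p = 0.045, Fisher's exact test) and GLCCI1 (0.0489) the call lies close to the threshold, and that of GLCCI1 was lost at a minimum of 10 reads (0.053). None of the 4 rises with 0 exclusion reads in KO cells kept its call with the correction for spread.

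The other 5 rises, that of IDI1 among them, kept exclusion reads in both libraries. Of these 5, only that of IDI1 kept its call with the correction for spread. SFPQ encodes an RNA-binding protein of nuclear paraspeckles. Its intron of 3161 nt (chromosome 23, 4354048 to 4357208) had 98 exclusion and 192 inclusion reads in KO cells, 66.2% (60.4 to 71.6), against 193 exclusion and 189 inclusion reads in WT cells, 49.5% (44.4 to 54.6). Its inclusion reads were nearly equal in number and its exclusion reads fewer in KO cells, the reverse of IDI1 in unscaled counts. The adjusted p was 0.000624 by Fisher's exact test and 0.578 with the correction for spread. CDC7, the kinase that fires replication origins, had 73 exclusion and 39 inclusion reads in KO cells, 34.8% (26.1 to 44.4), against 117 exclusion and 24 inclusion reads in WT cells, 17% (11.2 to 24.3), with an adjusted p of 0.0262. LOC770857 had 64.0% (59.3 to 68.4; 447 reads) in KO and 48.4% (43.8 to 53.0; 467 reads) in WT cells. LOC693249 had 94.8% (89.0 to 98.1; 115 reads) in KO and 72.0% (62.1 to 80.5; 100 reads) in WT cells.

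Of the 7 introns that fell, 6 lay on chromosomes 1 to 10, which held 224 of the 385 tested introns. The 7 falls are too few to set the chromosome classes apart. MYCBPAP, a protein that binds a partner of MYC, had the widest difference, at an intron of 730 nt on chromosome 18 (10603245 to 10603974). It had 42 exclusion and 17 inclusion reads in KO cells, 28.8% (17.8 to 42.1), against 11 exclusion and 28 inclusion reads in WT cells, 71.8% (55.1 to 85.0). The difference was -43.0 points with an adjusted p of 0.00125 in the exact test. An event of undefined type (10603130 to 10603712) overlaps this intron and hardly moved. That event had 166 exclusion and 208 inclusion reads in KO cells, 55.6%, against 87 and 98 in WT cells, 53.0%, and was not called. C1H12orf35 had 17.5% (7.34 to 32.8; 40 reads) in KO and 52.8% (35.5 to 69.6; 36 reads) in WT cells, with an adjusted p of 0.0314. UBE2E3, a ubiquitin-conjugating enzyme, had 35 exclusion and 78 inclusion reads in KO cells, 69.0% (59.6 to 77.4), against 0 exclusion and 52 inclusion reads in WT cells, 100% (93.2 to 100). In LNX2, a ubiquitin ligase that binds Numb, 12 exclusion and 31 inclusion reads in KO cells stood against 0 exclusion and 32 inclusion reads in WT cells. Both introns were without a spliced read in WT cells, with adjusted p-values of 1.7e-05 for UBE2E3 and 0.0173 for LNX2.

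RAB6A, a small GTPase of Golgi traffic, had 40 exclusion and 124 inclusion reads in KO cells, 75.6% (68.3 to 82.0), against 6 exclusion and 136 inclusion reads in WT cells, 95.8% (91 to 98.4), at an intron of 203 nt (chromosome 1, 194721485 to 194721687). The adjusted p was 2.02e-05. RRP8, a methyltransferase of ribosomal RNA, was the called intron with the lowest levels, with 144 exclusion and 4 inclusion reads in KO cells, 2.7% (0.741 to 6.78), against 193 exclusion and 35 inclusion reads in WT cells, 15.4% (10.9 to 20.7). LOC100859304 had 59.0% (52.3 to 65.5; 227 reads) in KO and 81.5% (72.9 to 88.3; 108 reads) in WT cells at a listed length of 32 nt. None of the 7 falls kept its call with the correction for spread, where the adjusted p was 0.336 for RAB6A and higher for the others.

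**Figure D4:**
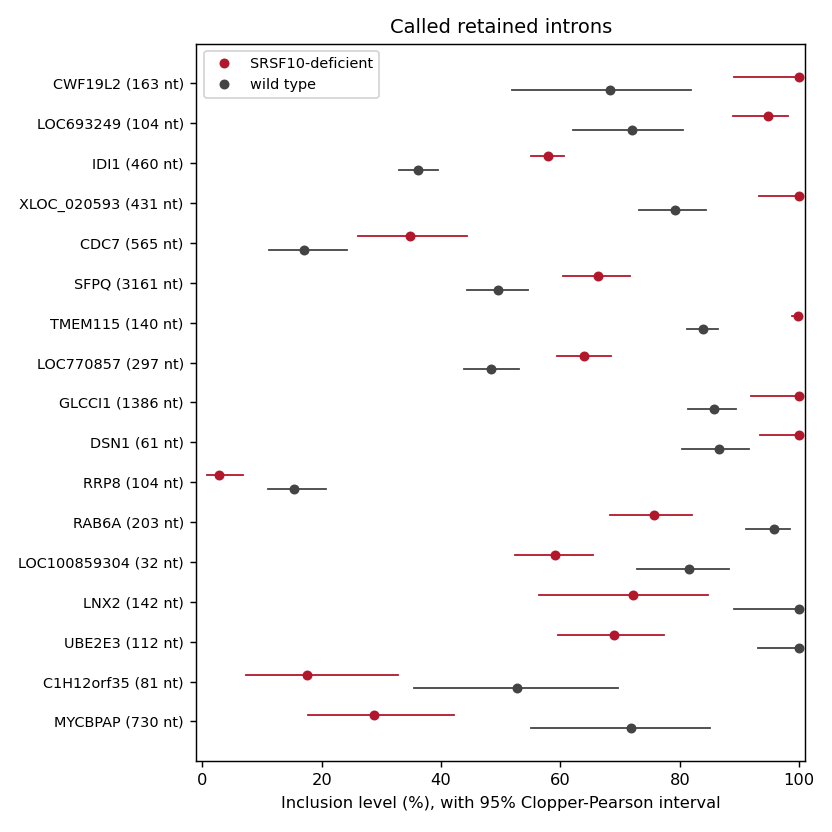
Inclusion level (percent, horizontal axis) of 17 called introns in the KO library (red, upper point) and the WT library (grey, lower point), with 95% Clopper-Pearson intervals for counting error. Introns are ordered by the difference, from CWF19L2 at the top to MYCBPAP at the bottom, and 5 of the 10 rises plotted lie at 99% or more in KO cells.

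An adjusted p under 0.05 with a difference under 10 points was reached by 3 introns. FAM208B had 92.2% in KO and 82.3% in WT cells (9.88 points), C11H16orf80, now named CFAP20, a cilium protein, had 100% in KO and 91.9% in WT cells (8.14 points), and a second intron of NUCKS1 had 100% of 138 reads in KO and 93.1% of 260 reads in WT cells (6.92 points). All 3 were higher in KO cells, and for 2 of them the exclusion reads were 0 there. The called introns nearest to the limit of 10 points were RRP8 (-12.6 points) and DSN1 (13.4 points).

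Other events of the same genes were not called. Of the genes with called introns 10 had further tested events, 22 in all, and 0 of these passed both thresholds, beside 4.69% of all tested events. At that share, a count of 0 among 22 events does not set the introns apart from the other events. The 22 events included 6 cassette exons. Events of undefined type that meet the called introns of LNX2, RAB6A and SFPQ at a shared position differed by 13.3, 12.3 and -10.5 points. Each had the opposite sign to the called intron of its gene. For SFPQ that event had 99 inclusion reads in KO and 193 in WT cells. The SFPQ intron had 98 exclusion reads in KO and 193 in WT cells. The same reads may thus be counted at both events, so the opposite signs are not separate observations. RAB6A had a cassette exon with 113 exclusion and 238 inclusion reads in KO cells, 67.8%, against 136 exclusion and 211 inclusion reads in WT cells, 60.8%, which is the opposite sign to its introns. SFPQ had a cassette exon with 91.3% in KO and 90.4% in WT cells. In GLCCI1 a cassette exon had 91.2% in KO and 89.1% in WT cells, with 274 reads in KO and 1556 reads in WT cells, so that reads of this gene were fewer in KO cells at both events. Across the gene names other than unnamed loci, 154 of 560 (27.5%) also listed a cassette exon, 116 (20.7%) an alternative 3' site and 123 (22%) an alternative 5' site.

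Introns of 1 gene lay close in level in some genes and far apart in others. There were 25 gene names with at least 2 tested introns at separate positions, 57 introns in all, and the levels of a gene's introns in KO cells lay a median of 15 points apart. In 10 genes they were within 10 points, and in 6 they were more than 50 points apart. NUCKS1 is an example of the wide kind, with 0.321% at one intron and 100% at the other in KO cells. TM9SF3, an endosomal membrane protein, had 0 of 147 reads in KO cells (up to 2.04%) and 0 of 150 reads in WT cells (up to 2%) at an intron of 104 nt, and 96.6% in KO and 96.5% in WT cells at one of 38 nt. DNAJB12, a co-chaperone of the endoplasmic reticulum, had 21.4% in KO and 24.4% in WT cells at one intron and 96.7% in KO and 100% in WT cells at the other. TM9SF3 and DNAJB12 were singled out after their values were seen, as was RAB3GAP1 below.

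All introns of a gene had higher levels in KO cells in 3 of the 25 genes and lower levels in 5, and in 17 they differed in sign or included equal levels. RAB3GAP1, a subunit of a GTPase-activating complex for Rab3, had 3 listed introns on chromosome 7. The intron of 105 nt had 23 exclusion and 11 inclusion reads in KO cells, 32.4% (17.4 to 50.5), against 13 exclusion and 24 inclusion reads in WT cells, 64.9% (47.5 to 79.8). The intron of 287 nt had 32.4% (22 to 44.3; 74 reads) in KO and 52.4% (39.4 to 65.1; 63 reads) in WT cells. The third had 21.7% of 23 reads in KO and 52.6% of 19 reads in WT cells and was too shallow to be tested. All 3 had lower levels in KO cells, but neither tested intron passed the adjustment, with adjusted p-values of 0.116 and 0.232 by Fisher's exact test.

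Among the gene names with most introns, XLOC_019821 had 6. All 6 were tested and lay between 0% and 1.04% in KO cells and at 0% in WT cells. A2ML1, a protease inhibitor of the alpha-2-macroglobulin family, had 4 introns, none with more than 11 reads in a library. It was 1 of 7 gene names with 4 introns, and the others are not described here. The rows of XLOC_019821 and A2ML1 thus gave levels near 0 or no usable level.

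Lists of genes were matched by name patterns, which leave out some genes of the same function. SFPQ, CDC7 and LNX2, all called, and uncalled RNA-binding proteins such as RBM24 and CHTOP are in none of them. The counts below are therefore counts over the lists, to be read beside the 4.69% of all tested events that were called. Among SR proteins and their kinases all 4 listed introns were tested and none was called. SRSF2, an SR protein with a regulated intron in its mRNA, had 529 exclusion and 855 inclusion reads in KO cells, 61.8% (59.2 to 64.3), against 451 exclusion and 864 inclusion reads in WT cells, 65.7% (63.1 to 68.3), with an adjusted p of 0.316. LUC7L3, a protein linked to the U1 snRNP, had 9.43% in KO and 6.46% in WT cells. Among hnRNPs and other regulators 2 of 2 introns were tested, those of HNRPDL, given above, and of TARDBP (95.5% of 22 reads in KO and 91.9% of 74 reads in WT cells), and none was called. In the spliceosome and helicase list 1 of 5 tested introns was called, that of CWF19L2, which was higher in KO cells. DDX5, an RNA helicase, had 73.8% of 873 reads in KO and 75.9% of 415 reads in WT cells. Genes that export, cleave or degrade RNA had 4 tested introns, of which 0 were called. NUP214, a protein of the nuclear pore, had 32.6% in KO and 41.1% in WT cells (adjusted p = 0.437, Fisher's exact test), and NUP160, another, had 1.05% in KO and 1.33% in WT cells.

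Rab GTPases and vesicle traffic had 12 tested introns with 1 lower in KO cells, that of RAB6A given above. A second intron of RAB6A had 89.0% in KO and 94.1% in WT cells, and ARF5, a GTPase of the Golgi, had 99.6% in KO and 99.7% in WT cells. The list of ubiquitin enzymes had 7 tested introns with 1 lower, that of UBE2E3, and the ubiquitin ligase LNX2, which also fell, is not in it. UBE2D2 (2.28% in KO and 1.33% in WT cells) and the cullin CUL2 (8.7% in KO and 13.2% in WT cells) had low levels in both libraries. The lists of translation genes (4 tested), chromatin genes (5), genes of DNA replication and repair (5) and genes of B-cell signalling and lymphoid transcription (3) had no called intron, and the replication kinase CDC7, which rose, is not in them. With 2 to 12 tested introns a list, a single call sets the share, and nothing particular to a list is read from these counts. The median differences of the 10 lists ran from -6.70 points for chromatin genes to 2.0 points for hnRNPs and other regulators, beside 0 points over all introns.

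In the lists without a call, DARS, the aspartyl-tRNA synthetase, had 99.3% in KO cells and 100% in WT cells. PHF20, a reader of histone marks, had 64.7% of 266 reads in KO and 71.4% of 199 reads in WT cells, and HDAC9, a histone deacetylase, had 87.3% in KO and 97.0% in WT cells. Of the replication and repair genes, ORC4, of the origin recognition complex, had 95.5% in KO and 91.4% in WT cells, and the helicase RECQL5 had 93.8% of 48 reads in KO and 74.1% of 54 reads in WT cells (adjusted p = 0.111, Fisher's exact test). Of the lymphoid genes, IL2RG, the shared receptor chain of several interleukins, had 45.7% of 326 reads in KO and 49.5% of 212 reads in WT cells, and CD69, an activation marker, had 44.4% of 54 reads in KO and 32.2% of 59 reads in WT cells. BCL11A, a zinc finger factor of lymphoid development that was named after its values were seen, had 35 exclusion and 30 inclusion reads in KO cells, 46.2% (33.7 to 59.0), against 5 exclusion and 17 inclusion reads in WT cells, 77.3% (54.6 to 92.2). The difference of -31.1 points had an adjusted p of 0.157, at a depth of 22 reads in WT cells.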

How the data were processed

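Libraries were paired-end and made from poly(A) RNA, per the labels' protocols. The submitters' processing notes name galGal4, Cufflinks and TopHat2 2.0.6. Which tool called and counted the events is not given in the sources used here. Raw read counts of exclusion and inclusion, with no normalization, were deposited by the authors, with an adjusted p-value per event whose test is not stated. Strand is not recorded, so reads of overlapping genes cannot be told apart. Of 1089 retained intron rows, all with 2 numbers per library, 40 exact repeats and 45 introns on chromosome Z were left out. In the remaining 1004 rows, 7 positions were listed more than once. The exact test ran on every event with 20 or more reads in both libraries. The calling step was also run on simulated data with counting noise only, which cannot show how it behaves at the wider spread of these libraries. Gene names were matched with the GRCg7b gene table (438 of 560 names other than unnamed loci), used for names only. Members, lists and tests were chosen with earlier results of these data known. Named were all called introns, up to 4 nearest the call, the 5 with most reads, the 3 shortest and 3 longest, up to 3 gene names with most introns, and 2 introns per list with most reads. Alternatives changed the minimum reads, difference, adjusted p, read weight, spread, test, repeats, introns per gene and class limits. Some named introns are not reported here, though the counts include them. Intron sequences were not analysed here. Tests used SciPy 1.17.1 under Python 3.11.15, tables NumPy 2.4.6 and pandas 2.3.3, and plots matplotlib 3.10.9.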

Additional observations from a re-analysis of the deposited data

How the results depend on the processing

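The 18 calls (11 higher, 7 lower; 10 short, 8 longer) stayed within 1.5 times with a minimum of 10 or 50 reads, an adjusted p of 0.01, no minimum difference, or 1 row per position. With all reads divided by 2 there were 6 (4 higher, 2 lower; 3 short, 3 longer). With each chi-square divided by the inflation of its type, taken as at least 1, there were 3 (3 higher and 0 lower, 2 short and 1 longer). With the authors' adjusted p there was 1 (1 higher, 0 lower; 0 short, 1 longer), and at a minimum difference of 20 points 11 (5 higher, 6 lower; 7 short, 4 longer). Levels below are medians. With inclusion reads halved, since an intron has a boundary at each end, they were 34.5% in KO and 41.9% in WT cells over all introns, 28.6% in KO cells for longer introns, 58.8% in WT cells for short ones and 27.3% in KO cells on chromosomes 11 to 28. With a minimum of 50 reads longer introns had 17.2% in KO and 17.2% in WT cells, and short introns exceeded longer ones by 58.5 points in KO and 59.1 points in WT cells. That excess was 9.61 points in KO cells with a minimum of 10 reads and 14.1 points in KO cells with a limit of 150 nt. Without unnamed loci, an alternative chosen after seeing the data, all introns had 65.2% in KO and 70.9% in WT cells, longer ones 61.5% in KO cells, and the excess was 12.6 points in KO and 15.5 points in WT cells. The order of the length classes, pooled over chromosomes and scaffolds, was the same in each alternative run. So was the order of chromosomes 1 to 10 and 11 to 28. Except where a value above shows it, the cause was not tested. No paired analysis was possible because there was 1 library per genotype and the labels give no replicate numbers. Depth limits the 619 introns with fewer than 20 reads in a library.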
